A study of Mus musculus with 8 samples.

Results

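The genes described here are 49 genes of the lysosome, of autophagy and of the vacuolar proton pump (V-ATPase) in mouse embryonic fibroblasts (MEFs), out of 24460 genes counted. They were chosen by name: 26 genes for lysosomal enzymes and proteins, autophagy factors and the transcription factors Tfeb and Tfe3, together with all 23 gene symbols that begin with Atp6v, which name the subunits of the pump. Of the 49 genes, 42 had enough counts to be tested.

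Lysosomes are acidic organelles in which proteases, glycosidases and lipases break down material delivered by endocytosis and by autophagy. Their acid interior is made by the V-ATPase, in which a cytosolic V1 sector hydrolyses ATP and turns a membrane V0 sector that carries the protons. Many lysosomal genes are controlled by TFEB and TFE3, related transcription factors that bind a palindromic E-box (CACGTG) near gene starts and whose activity is set largely by phosphorylation and movement into the nucleus, which an mRNA level does not report. Most cells, fibroblasts included, express this machinery.

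Wild type MEFs, below confluence in high-glucose medium, received RHPS4, a ligand of the G-quadruplexes (G4s) that G-rich nucleic acids can form. There were 3 libraries without it (0 µM), 3 from cells at 2 µM and 2 from cells at 10 µM. The labels name 16 h and 24 h exposures without saying which was used for these libraries, and do not say whether the replicates were separate cultures, so that p values measure only the spread between these libraries. The question of the comparison was how gene expression changes with the dose of the ligand. Levels are CPM, counts scaled to the library size by TMM, and changes are log2 fold changes ± SE from edgeR over all libraries, with adjusted p values over all 14296 genes tested. A gene is said to have risen or fallen at an adjusted p under 0.05, and is called a differentially expressed gene (DEG) at an adjusted p under 0.01 with a fold change over 1.5.

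The libraries held 10455965 to 26688121 counts, so that 3 counts, taken as the floor, corresponded to 0.112 to 0.287 CPM. Floors cover counting error only. Counts on mitochondrial DNA (mtDNA) made up 13.2 to 14.4% of the library at 0 µM, 7.40 to 8.26% at 2 µM and 5.33 to 6.32% at 10 µM, which leaves more of each treated library for nuclear genes. The first 0 µM library stood apart from the other 0 µM libraries, with a chi-square per degree of freedom of 18.4 and 24.1 against them, compared with 3.62 between those other libraries. The same measure was 4.45 to 12.6 among the 2 µM libraries and 10.1 between the 10 µM libraries. All 10 fibroblast markers were present, at a summed 12900 to 13400 CPM at 0 µM, 11600 to 11900 at 2 µM and 11300 to 11800 at 10 µM. Of 10 macrophage markers, which would mark a cell type rich in lysosomes, 9 stayed under 3 CPM in every library. Their sum went from 20.8 to 22.9 CPM at 0 µM to 16.1 to 18.8 at 2 µM and 15.0 at 10 µM, and it was carried by Cd14 (at most 16.8 CPM). Of 8 osteoclast markers, 6 stayed under 3 CPM, and their sum was 8.51 to 9.88, 6.66 to 9.43 and 8.49 to 8.85 CPM at the 3 doses. Of 6 neural markers, 5 stayed under 3 CPM, and their sum was 5.61 to 6.49 CPM at 0 µM, 4.57 to 6.08 at 2 µM and 10.3 to 11.6 at 10 µM, carried by Tubb3 (at most 7.69 CPM). Every endothelial, epithelial and muscle marker, 6 of each, stayed under 3 CPM, with sums at 0, 2 and 10 µM of 4.92 to 6.95, 4.85 to 6.93 and 7.08 to 8.35 CPM for the endothelial list. The part of these lists in the results was not tested. In bulk RNA, a change in the cells and a change in RNA per cell cannot be told apart.

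The E-box is shown here in members of each lysosomal class, since it was more frequent in the members' promoters than in those of all counted genes, though most members lack it. The genes were chosen by name, but many lysosomal genes are known targets of TFEB and TFE3, which bind this motif. The higher share is therefore not independent of the choice of genes. The sequences are the RefSeq promoter windows (GRCm38.p6), of which only bases ahead of the RefSeq start site are printed, 5′ to 3′ on the strand of the gene, with CACGTG in capitals. The windows are chr8:13159091-13159160 (plus strand) for Lamp1, chr2:164833744-164833772 (plus) for Ctsa, chr7:142387908-142387937 (minus) for Ctsd, chrX:134601186-134601215 (minus) for Gla, chr8:3500434-3500483 (plus) for Mcoln1 and chr16:44139370-44139404 (minus) for Atp6v1a. In the GENCODE annotation those of Ctsa, Ctsd and Mcoln1 lie at least partly in an untranslated exon part of the same gene. That of Gla lies in an untranslated exon part of the neighbouring gene Hnrnph2, which is read from the other strand. Those of Lamp1 and Atp6v1a lie in no exon.
Lamp1: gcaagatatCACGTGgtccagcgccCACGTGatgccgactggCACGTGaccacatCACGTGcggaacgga
Ctsa: aacaatgagcaaactgtCACGTGatgcag
Ctsd: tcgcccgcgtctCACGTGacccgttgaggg
Gla: catgtgagatctcggtCACGTGagcaactc
Mcoln1: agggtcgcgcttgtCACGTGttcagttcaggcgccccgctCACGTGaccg
Atp6v1a: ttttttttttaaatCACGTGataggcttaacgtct

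Lamp1 had 4 copies within 70 bases of its start. The other 5 genes carried the longer palindrome TCACGTGA, which contains the E-box. RefSeq windows of 250 bases before to 50 bases after the start were found for 40 of the 49 members. CACGTG, which reads the same on both strands, was present in 13 of these (32.5%), against 9.17% of all counted genes with a window and 11.4% of the tested ones. TCACGTGA was present in 7 (17.5%), against 1.46% and 2.04%. By role, CACGTG was found in 7 of 11 hydrolases, 2 of 6 other lysosomal proteins, 3 of 7 V0 subunits, 1 of 9 V1 subunits, and in neither the autophagy genes (0 of 5) nor Tfeb and Tfe3. A match is a description of these letters and not of a bound site.

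The members changed little in size at either dose. At 2 µM, 3 of the 42 tested members fell (7.14%, where 4.16% of all tested genes were called and 2.65% fell) and none rose. These were the protease Tpp1 and the autophagy genes Map1lc3b and Wipi1. With 10 µM RHPS4, 9 members rose and 1 fell against 0 µM (23.8% against 13.9% of all tested genes). The members that rose were Ctsl, Tpp1, Scarb2, Mcoln1, Rb1cc1 and the pump genes Atp6v1h, Atp6v1g1, Atp6v1e1 and Atp6v0b, and the one that fell was Atp6v0a2. From 2 to 10 µM, 9 members again rose and 1 fell, which is 23.8% where 23.4% of all tested genes were called, so that the count as such was no higher than that of the background. Here Ctsa, Tpp1, Gaa, Gla, Scarb2, Mcoln1, Map1lc3b, Rb1cc1 and Atp6v0d1 rose and Atp6v0a2 fell. The 3 comparisons share libraries and are not independent of each other.

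By direction, 21.4% of the members rose at 10 µM against 0 µM where 6.81% of all tested genes rose and 7.11% fell. Against 2 µM, the same share rose where 11.5% of all tested genes rose and 11.9% fell. The median log2 fold change of the members was -0.07 at 2 µM, 0.16 at 10 µM, and 0.20 at 10 µM against 2 µM, beside medians of -0.01, 0.02 and 0.03 over all tested genes. Every 10 µM library lay above every 0 µM library for 18 members and below for 4, where 22.9% and 20.0% of all tested genes did so. Above every 2 µM library the counts were 25 and 1, with 27.0% and 24.9% of all tested genes. At 2 µM against 0 µM they were 3 above and 9 below, with 12.7% and 12.9%.

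None of the 42 members was a DEG at 2 µM or at 10 µM against 0 µM by edgeR or by DESeq2, where edgeR called 0.497% and 3.09% of all tested genes. At an unadjusted p under 0.05 there were 11 members at 2 µM (8 lower) and 16 at 10 µM (13 higher). No share of all tested genes at that unadjusted limit is given, so the unadjusted counts here and below have no background beside them. The only DEGs were Tpp1 and Gla at 10 µM against 2 µM (5.51% of all tested genes). Neither was a DEG by DESeq2, which called both at an adjusted p under 0.05.

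The counts rested on single libraries, on the scaling and on the method of testing. DESeq2 called 5 members at 10 µM against 0 µM, without Tpp1, Mcoln1, Atp6v1h, Atp6v1g1 and Atp6v0b. Against 2 µM it called 8, without Ctsa and Gaa. The 3 calls at 2 µM went to 0 without the second or the third 0 µM library or without any one of the 2 µM libraries, to 1 without either 10 µM library, and to 7 (3 higher) without the first 0 µM library. The count for 10 µM against 0 µM went from 10 to 0 without the second 10 µM library, to 3 without the first, to 1 without 0 µM replicate 2, to 2 without 0 µM replicate 3, to 5 without 2 µM replicate 2 and to 6 without 2 µM replicate 3. The count remained 10 without the first 0 µM library, 9 of them the same genes. For 10 µM against 2 µM the count was 3 without the second 10 µM library and 7 to 12 without any other. When counts were scaled by the library total alone, the median of all genes was 0.23 at 10 µM against 0 µM on the log2 scale, and 30 members were called higher and 0 lower. Against 2 µM that median was 0.16, with 26 higher and 1 lower. At 2 µM it was 0.07, with 2 higher and 1 lower. The shares of all tested genes called under that scaling or without a library are not given here. These counts therefore cannot be read as a result about the members.

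**Figure D1:**
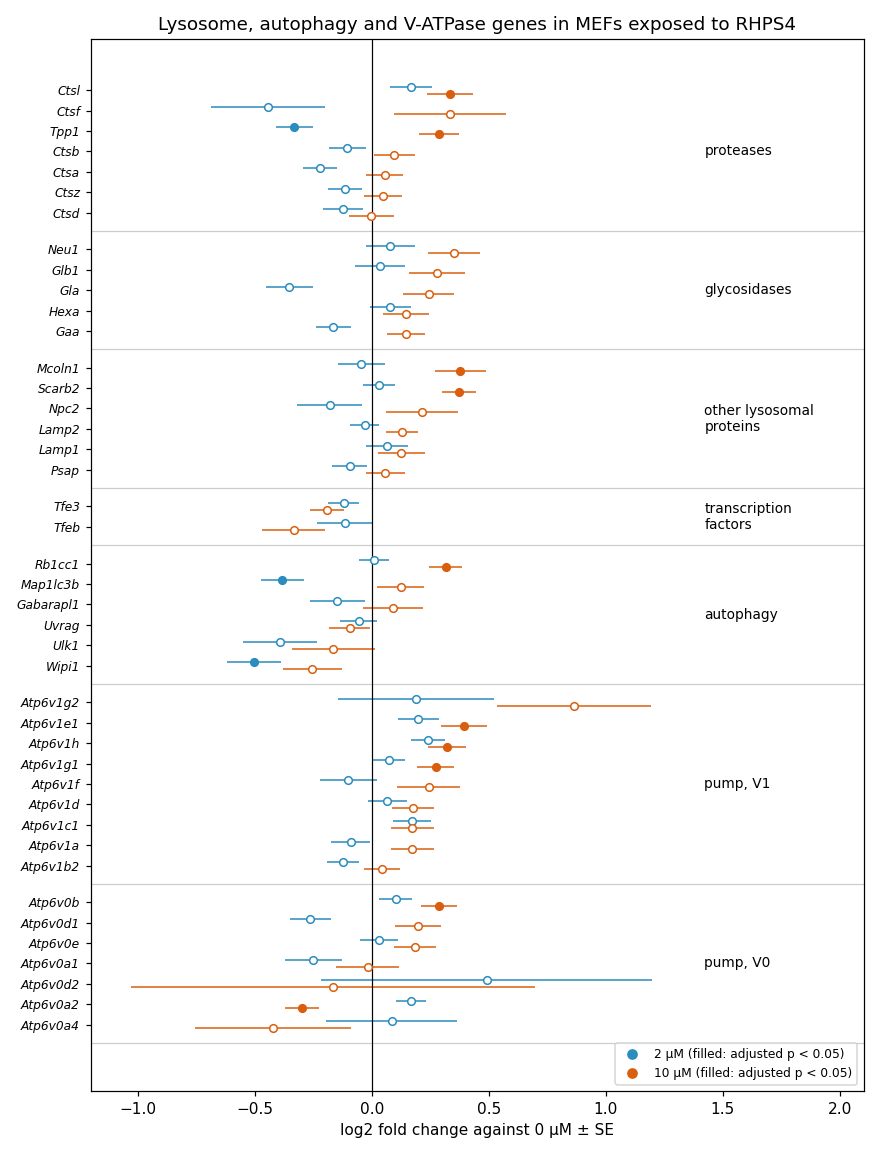
Log2 fold change against 0 µM ± SE for the 42 tested members, in rows by role, at 2 µM (blue) and 10 µM (orange), with filled points for an adjusted p under 0.05. At 10 µM 32 members lie right of 0 and 10 to its left, among them Tfeb, Tfe3 and Atp6v0a2. Tpp1, Map1lc3b and Wipi1 are the filled points left of 0 at 2 µM.

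The lysosomal proteases were the most abundant enzymes among the members. At 0 µM, per kilobase of the longest transcript, they ranged from 0.752 CPM per kb for Ctsf to 201 for Ctsd, the aspartic protease cathepsin D, with a median of 87.8 over the 7 genes. Of the 7, 1 fell at 2 µM (Tpp1, 14.3%, where 2.65% of all tested genes fell). At 10 µM 2 rose against 0 µM (Ctsl and Tpp1, 28.6%, where 6.81% of all tested genes rose). Against 2 µM 2 rose (Ctsa and Tpp1, 28.6%, where 11.5% of all tested genes rose). The median log2 fold changes of the 7 were -0.12, 0.10 and 0.20 in these comparisons.

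Tpp1 encodes a tripeptidyl peptidase that trims peptides from their amino end. Its level was 50.8, 50.7 and 49.0 CPM in the 0 µM libraries, 42.8, 36.4 and 40.5 CPM at 2 µM, and 63.1 and 59.1 CPM at 10 µM. The 3 doses did not overlap, with 2 µM lowest and 10 µM highest. The gene (chr7:105744811-105752235, minus strand) had a log2 fold change of -0.33 ± 0.08 at 2 µM (adjusted p = 0.0414), and was 0.29 ± 0.09 higher at 10 µM than at 0 µM (adjusted p = 0.0461). Between 2 and 10 µM the difference was 0.62 ± 0.09, a 1.53-fold rise (adjusted p = 0.000682). That last call held in all 16 alternative fits, whereas the call at 2 µM held in 1 and the call at 10 µM against 0 µM in 0 of the 8 fits that left out a library. Without the first 0 µM library, where the call at 2 µM held, the one at 10 µM against 0 µM had an adjusted p of 0.0564.

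Ctsl, cathepsin L, a cysteine protease, had 764, 635 and 637 CPM at 0 µM, 811, 748 and 726 CPM at 2 µM, and 833 and 878 CPM at 10 µM. Both 10 µM libraries were above the other 6, and the first 0 µM library reached into the range of the 2 µM libraries. The log2 difference at 10 µM was 0.33 ± 0.10 (adjusted p = 0.0418), and the call was held only without the first 0 µM library among the fits that left out a library, with an adjusted p of up to 0.269 without the second 10 µM library. Of the 75-base stretches of its transcripts, 24.6% are shared with other genes, above all Gm47123 on the opposite strand.

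Ctsa, the protective protein that holds sialidase and beta-galactosidase in a complex, was 0.28 ± 0.08 higher at 10 µM than at 2 µM on the log2 scale (adjusted p = 0.0280). Its call was lost without the second 0 µM library, the second or the third 2 µM library or either 10 µM library (adjusted p = 0.0528 to 0.216). The remaining proteases did not pass the test in any comparison. Ctsb and Ctsz (cathepsins B and Z) had log2 differences at 10 µM against 0 µM of 0.10 and 0.05, that of Ctsd was within 0.01 of 0, and Ctsf had 0.33 ± 0.24 at 1.57 ± 0.252 (SD, n = 3) CPM at 0 µM. For Ctsd, 31.3% of the 75-base stretches are shared with the overlapping Gm49369 on the same strand.

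The glycosidases remove sugars from glycolipids, glycoproteins and glycogen. At 0 µM they ranged from 3.57 CPM per kb for Neu1 to 43.2 for Hexa. Among the 5 genes, none passed the test against 0 µM at 2 µM or at 10 µM. Gaa and Gla rose at 10 µM against 2 µM (40%, where 11.5% of all tested genes rose). DESeq2 called 0 of the 5 against 0 µM at either dose, and 2 at 2 µM and 3 at 10 µM had an unadjusted p under 0.05. All 5 estimates at 10 µM against 0 µM were above 0, from 0.15 to 0.35, with a median of 0.24.

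Gla encodes alpha-galactosidase A, which is lacking in Fabry disease. There were 24.8, 23.5 and 24.3 CPM at 0 µM, 19.4, 18.1 and 19.3 CPM at 2 µM, and 25.2 and 32.2 CPM at 10 µM. The 2 µM libraries were below all others and the 10 µM libraries above all others, though the first 10 µM library was only just above the highest 0 µM library. The gene (chrX:134588149-134601125, minus strand) was 0.60 ± 0.11 higher at 10 µM than at 2 µM on the log2 scale, which is 1.51-fold (adjusted p = 0.00348). Without the second 10 µM library this difference was 0.37 (adjusted p = 0.0590), and the call held without any other library. Against 0 µM the differences were -0.35 ± 0.10 at 2 µM (adjusted p = 0.0762) and 0.24 ± 0.11 at 10 µM (adjusted p = 0.161).

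Neu1, the lysosomal sialidase, had 13.6, 13.0 and 12.2 CPM at 0 µM, 13.7, 12.2 and 14.7 CPM at 2 µM, and 15.7 and 17.1 CPM at 10 µM. The 10 µM libraries were the highest, and the other doses overlapped. The log2 difference of 0.35 ± 0.11 at 10 µM did not pass (adjusted p = 0.0585). Gaa, the acid glucosidase that degrades glycogen, was 0.31 ± 0.08 higher at 10 µM than at 2 µM (adjusted p = 0.0192), which was lost without any one of the 2 µM libraries (adjusted p = 0.0570 to 0.0638) and without the first 10 µM library (adjusted p = 0.241). Glb1 (beta-galactosidase) and Hexa (the alpha subunit of beta-hexosaminidase) gave 0.28 ± 0.12 and 0.15 ± 0.10 at 10 µM against 0 µM without passing.

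Lysosomal membrane proteins and cofactors were led by Lamp1, which at 321 CPM per kb at 0 µM had the highest level of all members. Scarb2 and Mcoln1 rose at 10 µM against 0 µM (33.3% of the 6 genes, where 6.81% of all tested genes rose). Both also rose against 2 µM (33.3%, where 11.5% of all tested genes rose). DESeq2 did not call Mcoln1 against 0 µM. None of the 6 genes passed at 2 µM by edgeR or DESeq2, and none had an unadjusted p under 0.05 there. Scarb2 encodes LIMP-2, the receptor that carries beta-glucocerebrosidase to the lysosome. It had 65.5, 59.9 and 62.0 CPM at 0 µM, 63.8, 62.1 and 65.3 CPM at 2 µM, and 78.9 and 82.6 CPM at 10 µM. The 0 and 2 µM libraries lay in one range, and both 10 µM libraries were above it. The log2 difference was 0.37 ± 0.07 against 0 µM (adjusted p = 0.00785) and 0.34 ± 0.07 against 2 µM (adjusted p = 0.00804). Both were lost only without the second 10 µM library among the fits that left out a library (adjusted p = 0.107 and 0.105).

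Mcoln1, the calcium channel TRPML1 of the lysosomal membrane, rose by 0.38 ± 0.11 against 0 µM (adjusted p = 0.0397) and by 0.42 ± 0.11 against 2 µM (adjusted p = 0.0179) on the log2 scale, and these calls held in 2 and 4 of the 8 fits that left out a library. The calls were lost without either 10 µM library (adjusted p = 0.0716 to 0.195) and without 2 µM replicate 2 or 3, and the one against 0 µM also without the second or the third 0 µM library (adjusted p = 0.0865 and 0.147).

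Npc2, which hands cholesterol from the lysosome's lumen to its membrane, had 226, 159 and 179 CPM at 0 µM, 169, 154 and 174 CPM at 2 µM, and 182 and 253 CPM at 10 µM. The second 10 µM library and the first 0 µM library were high, and 0 and 10 µM overlapped. The log2 difference at 10 µM was 0.21 ± 0.15 (adjusted p = 0.389), and -0.07 without the second 10 µM library. Lamp1, Lamp2 and Psap, the precursor of the saposins, did not pass in any comparison, with 0.13, 0.13 and 0.06 at 10 µM against 0 µM.

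**Figure D2:**
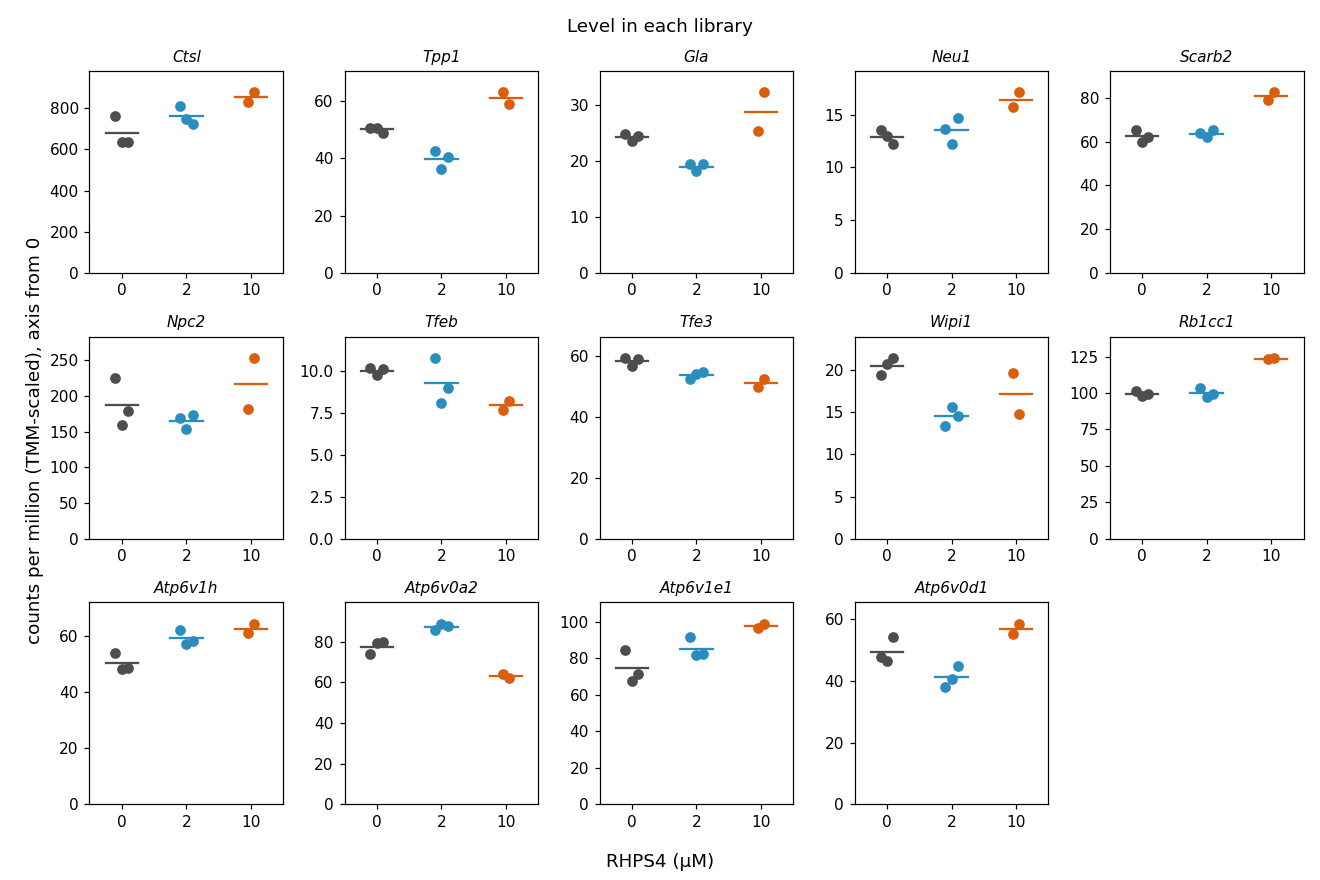
CPM in each library (points) and group mean (line) of 14 members at 0 µM (grey), 2 µM (blue) and 10 µM (orange), with each vertical axis starting at 0. Tpp1, Gla, Wipi1 and Atp6v0d1 have their lowest values at 2 µM, Scarb2 and Rb1cc1 are higher at 10 µM only, and Atp6v0a2 is lowest at 10 µM.

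Tfeb and Tfe3, the transcription factors, were lower at 10 µM than at 0 µM in every library, without passing the test over all genes. Both had an unadjusted p under 0.05 there, and DESeq2 called 0 of them. Tfeb had 10.2, 9.76 and 10.1 CPM at 0 µM, 10.8, 8.07 and 8.98 CPM at 2 µM, and 7.69 and 8.20 CPM at 10 µM. Only the 0 and 10 µM libraries were apart. The log2 difference at 10 µM was -0.33 ± 0.14 (adjusted p = 0.127). Tfe3 had 59.3, 56.8 and 59.0 CPM at 0 µM, 52.4, 54.0 and 54.7 CPM at 2 µM, and 49.8 and 52.5 CPM at 10 µM. Both treated doses were below 0 µM and overlapped each other, and the log2 differences were -0.12 ± 0.07 (adjusted p = 0.323) and -0.19 ± 0.07 (adjusted p = 0.114). The sign for Tfe3 at 10 µM depended on the scaling, with 0.03 when only the library total was used.

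Both genes had a G4 motif ahead of a start site, which is shown because RHPS4 binds such structures. The motif searched was 4 runs of at least 3 G with 1 to 7 bases between them, on both strands. The printed stretches are the motifs ahead of the RefSeq starts at chr17:47737733-47737758 and chr17:47785665-47785685 for Tfeb and chrX:7763895-7763913 for Tfe3 (GRCm38.p6, plus strand), with the runs in capitals. For Tfe3 the runs of C are runs of G on the opposite strand. The first Tfeb stretch lies in an exon of another Tfeb transcript in GENCODE, and the others lie in no exon.
Tfeb, first window: GGGGGcGGGGGGGGctcGGGGGaGGG
Tfeb, second window: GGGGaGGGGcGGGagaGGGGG
Tfe3: CCCtgCCCactCCCtaCCC

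Such a motif was found in 9 of the 40 members with a window (22.5%), where 24.3% of all counted genes and 31.1% of the tested ones had it. Of the 8 tested members with the motif, 1 rose at 10 µM against 0 µM, and of the 26 without it 5 rose. Of all tested genes, 6.81% rose there. Tested members without a window are not in these counts. The motif shows only that these letters are present.

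The autophagy genes did not move as one group. Of the 6, Map1lc3b and Wipi1 fell at 2 µM (33.3%, where 2.65% of all tested genes fell). Rb1cc1 rose at 10 µM against 0 µM (16.7%, where 6.81% of all tested genes rose). Map1lc3b and Rb1cc1 rose at 10 µM against 2 µM (33.3%, where 11.5% of all tested genes rose). Wipi1 encodes a protein that binds phosphatidylinositol 3-phosphate on the forming autophagosome. Its level was 19.4, 20.8 and 21.4 CPM at 0 µM, 13.4, 15.7 and 14.6 CPM at 2 µM, and 19.7 and 14.8 CPM at 10 µM. All 2 µM libraries were below all 0 µM libraries, and the 10 µM libraries fell one into each range. The log2 difference at 2 µM was -0.50 ± 0.12 (adjusted p = 0.0374), and the call was lost without the second or the third 0 µM library or without any one 2 µM library (adjusted p = 0.0864 to 0.169). At 10 µM the gene stood at -0.25 ± 0.13 against 0 µM (adjusted p = 0.205).

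Map1lc3b encodes LC3B, which is coupled to lipid in the autophagosome membrane. It had 87.8, 72.0 and 78.3 CPM at 0 µM, 65.7, 56.3 and 60.3 CPM at 2 µM, and 81.9 and 90.6 CPM at 10 µM. The 2 µM libraries were below all others, and 0 and 10 µM overlapped. It fell by 0.38 ± 0.09 at 2 µM (adjusted p = 0.0419) and rose by 0.51 ± 0.10 from 2 to 10 µM (adjusted p = 0.00495). The first of these held only without the first 0 µM library among the fits that left out a library (adjusted p = 0.0570 to 0.191 in the others), and the second was lost only without the second 10 µM library (adjusted p = 0.0735).

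Rb1cc1 encodes FIP200, a subunit of the ULK1 kinase complex that starts autophagy. It had 101, 97.8 and 99.4 CPM at 0 µM, 103, 97.6 and 99.3 CPM at 2 µM, and 123 and 124 CPM at 10 µM. The 0 and 2 µM libraries could not be separated, and the 10 µM libraries stood above them. The log2 difference was 0.32 ± 0.07 against 0 µM (adjusted p = 0.0124) and 0.31 ± 0.07 against 2 µM (adjusted p = 0.00923). With 1 of the 10 µM libraries left out these had adjusted p values of 0.0696 to 0.118, and the first also missed without the second 0 µM library (adjusted p = 0.0592). Its partner Ulk1, the kinase itself, had 26.9 to 40.9 CPM at 0 µM, and the log2 differences of -0.39 ± 0.16 at 2 µM and -0.16 ± 0.18 at 10 µM did not pass. Gabarapl1, a relative of LC3, and Uvrag, a partner of the phosphatidylinositol 3-kinase complex, did not pass in any comparison.

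**Figure D3:**
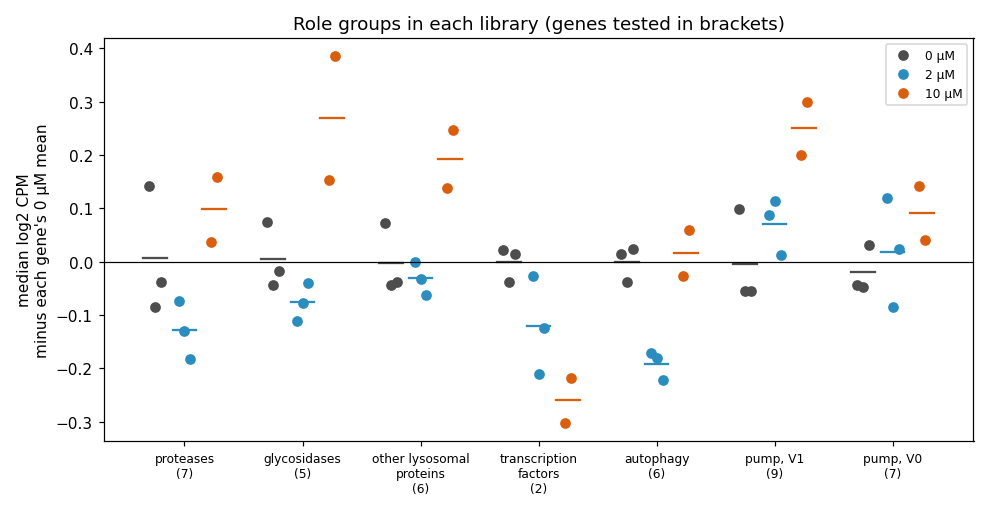
Median over the genes of each role group of the log2 CPM minus the gene's mean at 0 µM, for each library (points) with the group mean (line), at 0 µM (grey), 2 µM (blue) and 10 µM (orange). The autophagy medians of the 2 µM libraries lie between -0.22 and -0.17, and the V1 medians of the 10 µM libraries between 0.20 and 0.30.

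The plot of role groups puts these genes side by side by library. The median of the 6 autophagy genes was -0.17, -0.18 and -0.22 in the 2 µM libraries, below the -0.04 to 0.02 of the 0 µM libraries, and -0.03 and 0.06 at 10 µM. That of the 9 V1 genes was 0.20 and 0.30 at 10 µM, 0.01 to 0.11 at 2 µM and -0.06 to 0.10 at 0 µM. For the proteases the first 0 µM library, at 0.14, lay inside the range of the 10 µM libraries, 0.04 to 0.16, and the median of the 5 glycosidases was 0.15 and 0.39 at 10 µM against at most 0.07 at 0 µM. These medians are descriptions of chosen genes and carry no test.

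The V1 subunits of the pump, 13 genes of which 9 were tested, had estimates above 0 at 10 µM against 0 µM for all 9, with a median of 0.24. Atp6v1e1, Atp6v1g1 and Atp6v1h rose there (33.3%, where 6.81% of all tested genes rose), and DESeq2 called 1 of the 9, Atp6v1e1. At 2 µM none passed (0 by DESeq2, and 2 higher at an unadjusted p under 0.05), and none passed at 10 µM against 2 µM (0 by DESeq2, and 3 higher at an unadjusted p under 0.05). Atp6v1e1, which encodes a stalk subunit E, had 84.5, 67.5 and 71.3 CPM at 0 µM, 91.3, 81.9 and 82.3 CPM at 2 µM, and 96.3 and 98.6 CPM at 10 µM. The 10 µM libraries were above all others, and the first 0 µM library lay within the 2 µM range. The log2 difference was 0.39 ± 0.10 (adjusted p = 0.0222), and it was lost without the second or the third 0 µM library or either 10 µM library (adjusted p = 0.0774 to 0.166).

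Atp6v1h encodes subunit H, which links V1 to V0. Its values were 53.9, 48.4 and 48.6 CPM at 0 µM, 62.1, 57.2 and 58.4 CPM at 2 µM, and 61.0 and 64.2 CPM at 10 µM. Both treated doses were above 0 µM and overlapped each other. The log2 difference was 0.24 ± 0.07 at 2 µM (adjusted p = 0.0931) and 0.32 ± 0.08 at 10 µM (adjusted p = 0.0238), and the latter was lost without the second or the third 0 µM library or either 10 µM library (adjusted p = 0.0752 to 0.219). For Atp6v1g1, a further stalk subunit, the difference of 0.27 ± 0.08 (adjusted p = 0.0385) held only without the first 0 µM library among the 8 fits that left out a library (adjusted p = 0.0557 to 0.223 in the others). Atp6v1a and Atp6v1b2, whose products form the ring that binds ATP, had 0.17 ± 0.09 and 0.05 ± 0.08 at 10 µM against 0 µM and did not pass.

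The V0 sector, 10 genes of which 7 were tested, was split. Atp6v0b rose and Atp6v0a2 fell at 10 µM against 0 µM (14.3% each, where 6.81% of all tested genes rose and 7.11% fell). Atp6v0d1 rose and Atp6v0a2 fell at 10 µM against 2 µM (14.3% each, where 11.5% of all tested genes rose and 11.9% fell). None passed at 2 µM (0 by DESeq2, and 2 at an unadjusted p under 0.05). Atp6v0a2 encodes an a subunit that is known from the Golgi and endosomes. Its level was 74.0, 79.3 and 79.6 CPM at 0 µM, 85.9, 88.7 and 87.7 CPM at 2 µM, and 64.2 and 62.4 CPM at 10 µM. No 2 of the doses overlapped, with 2 µM highest and 10 µM lowest, which is the reverse of the order seen for Tpp1. The gene (chr5:124628576-124724455, plus strand) was lower by 0.47 on the log2 scale at 10 µM than at 2 µM (-0.47 ± 0.07, adjusted p = 0.00137), a call that held in all 16 alternative fits. Against 0 µM it stood at -0.30 ± 0.07 (adjusted p = 0.0211), which was lost without the second or the third 0 µM library or the second 10 µM library (adjusted p = 0.0579 to 0.116). With scaling by the library total alone that difference was -0.08. Of the 75-base stretches of its transcripts, 7.56% are shared, with 4930404A12Rik on the opposite strand.

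Atp6v0d1, the d subunit that joins the rotor to the membrane ring, had 47.7, 46.2 and 54.1 CPM at 0 µM, 38.0, 40.6 and 44.9 CPM at 2 µM, and 55.1 and 58.3 CPM at 10 µM. The doses did not overlap, with 2 µM lowest. It rose by 0.46 ± 0.10 from 2 to 10 µM (adjusted p = 0.00709), and the call was lost only without the second 10 µM library (adjusted p = 0.0826). Atp6v0b, a subunit of the proton-carrying ring, was 0.29 ± 0.08 higher at 10 µM than at 0 µM (adjusted p = 0.0293), a call that DESeq2 did not make. Its call was lost without the second or the third 0 µM library, the second 2 µM library or either 10 µM library (adjusted p = 0.0555 to 0.306).

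Several subunits have more than one gene, and MEFs used mainly one of each. Per kilobase of the longest transcript, Atp6v1b2, Atp6v1c1, Atp6v1e1, Atp6v1g1, Atp6v0d1 and Atp6v0e each made up 98.0 to 100% of their subunit's summed level in every library. Their paralogs, which are known mainly from kidney, bone or other specialised tissues, made up the rest. The a subunit was the exception. Tcirg1 (subunit a3, no Atp6v symbol) gave 51.1% ± 3.24 (SD, n = 3) of the summed CPM per kb at 0 µM, Atp6v0a2 27.0% ± 0.615, Atp6v0a1 21.3% ± 2.60 and Atp6v0a4 0.589% ± 0.0461. The share of Atp6v0a2 went to 31.2% ± 0.896 (n = 3) with 2 µM RHPS4 and to 21.6% ± 0.986 (n = 2) with 10 µM, and the 3 doses were apart. That of Tcirg1 was 49.7% ± 1.16 and 57.3% ± 1.68, with the 10 µM libraries the highest.

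The 7 members left untested were all pump genes. Atp6v1b1, Atp6v1c2, Atp6v1e2, Atp6v1g3 and Atp6v0e2 had at most 10 counts in any library. Atp6v0c-ps2, a pseudogene, had 0 counts in all 8 libraries, which allows up to 0.287 CPM in the smallest. Atp6v0c, which encodes the main proton-carrying subunit and is expected in every cell, had 0 to 2 counts per library and 4 in all. Only 9.24% of its 75-base stretches are shared with other transcripts, mainly Atp6v0c-ps2, and the cause of its low count was not tested, so that the value cannot be read as a lack of expression.

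Further genes of the same pathways, listed by function, were counted in the same way. Of 123 such genes, 117 were tested. At 2 µM 7 fell and none rose (5.98%, beside 4.16% of all tested genes called and 2.65% lower). At 10 µM against 0 µM 15 rose and 2 fell (14.5%, close to the 13.9% of all tested genes). The share that rose there was 12.8%, beside 6.81% of all tested genes. At 10 µM against 2 µM 38 rose and 2 fell (34.2%, beside 23.4% of all tested genes and 11.5% of them higher). Of 27 other lysosomal hydrolases, 1 fell at 2 µM (3.70%, beside 4.16% of all tested genes). At 10 µM against 0 µM 9 rose and 1 fell (37.0%, beside 13.9%). Against 2 µM 13 rose and 1 fell (51.9%, beside 23.4%), 6 of them as DEGs, where 5.51% of all tested genes were DEGs. The shares that rose were 33.3% and 48.1%, beside 6.81% and 11.5% of all tested genes. Idua, the iduronidase that degrades heparan and dermatan sulfate, had 7.99, 8.08 and 8.18 CPM at 0 µM, 7.76, 7.17 and 6.72 CPM at 2 µM, and 13.0 and 14.3 CPM at 10 µM. It rose by 0.75 ± 0.11 against 0 µM (adjusted p = 0.00159) and by 0.93 ± 0.12 against 2 µM (adjusted p = 0.000391), in all 16 alternative fits. Among the others called DEGs against 2 µM were Ctso (1.20 ± 0.22), Arsa (0.72 ± 0.14), Dnase2a (0.67 ± 0.11) and Lipa (0.62 ± 0.08), a cathepsin, a sulfatase, a nuclease and the acid lipase.

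Among 40 other autophagy genes, Calcoco1, a receptor for autophagy of the endoplasmic reticulum, was the one DEG at 2 µM. It had 30.0, 34.8 and 35.6 CPM at 0 µM, 19.9, 19.0 and 20.1 CPM at 2 µM, and 48.6 and 42.2 CPM at 10 µM. The doses were apart, with 2 µM lowest and 10 µM highest. It fell by 0.77 ± 0.09 at 2 µM (adjusted p = 0.00218) and rose by 1.21 ± 0.10 from 2 to 10 µM (adjusted p = 2.1e-05), both in all 16 alternative fits. Against 0 µM it was 0.43 ± 0.10 higher at 10 µM (adjusted p = 0.0153, and 0.146 without the first 10 µM library). Sqstm1, which encodes the cargo receptor p62, and Tecpr1, which acts where autophagosomes meet lysosomes, were DEGs at 10 µM against 2 µM, each with 0.65 and an SE of 0.10 and 0.12. In all, 3 of these 40 fell at 2 µM (7.50%, where 2.65% of all tested genes fell). At 10 µM 2 rose against 0 µM (5.00%, where 6.81% of all tested genes rose). Against 2 µM 10 rose (25.0%, where 11.5% of all tested genes rose).

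Of 20 other lysosomal proteins, 3 fell at 2 µM (15.0%, where 2.65% of all tested genes fell). Among them was Grn, the precursor of the granulins (-0.35 ± 0.07, adjusted p = 0.0247). Its call was lost without the third 0 µM library or any one 2 µM library (adjusted p = 0.0744 to 0.133). Between 2 and 10 µM 8 rose (40.0%, where 11.5% of all tested genes rose), with Cln8 (0.64 ± 0.12) and the cystine carrier Ctns (0.61 ± 0.11) as DEGs. Against 0 µM 1 of the 20 rose at 10 µM (5.00%, where 6.81% of all tested genes rose). It was the amino acid sensor Slc38a9 (0.37 ± 0.10, adjusted p = 0.0346). Its call was lost in each of the 8 fits that left out a library. Of 9 accessory and assembly factors of the pump, 2 rose at 10 µM against 0 µM (22.2%, where 6.81% of all tested genes rose). Against 2 µM 3 rose (33.3%, where 11.5% of all tested genes rose). Atp6ap2, the accessory protein also known as the prorenin receptor, was 0.45 ± 0.09 higher at 10 µM than at 0 µM (adjusted p = 0.00695). That call was lost without the second 10 µM library. The assembly factor Tmem199 had 0.22 ± 0.09 at 2 µM and did not pass. Among 21 genes of mTORC1 signalling at the lysosome and of TFEB control, none passed at 2 µM (0 by DESeq2, and 1 at an unadjusted p under 0.05). At 10 µM against 0 µM 1 rose and 1 fell (9.52%, below the 13.9% of all tested genes). Against 2 µM 4 rose and 1 fell (23.8%, near 23.4%). The shares that rose were 4.76% and 19.0%, beside 6.81% and 11.5% of all tested genes. The one that fell in both was Prkaa1, a catalytic subunit of AMPK (-0.35 ± 0.08 against 0 µM, adjusted p = 0.0129, and 0.0892 without the second 10 µM library). Fnip1, a partner of folliculin, rose by 0.33 ± 0.08 against 2 µM (adjusted p = 0.00997) and was lost without the second 2 µM library or either 10 µM library.

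Read against the promoter letters shown at the start, 5 of the 13 tested members with CACGTG rose at 10 µM against 2 µM, with a median log2 fold change of 0.26. Of the 21 without it 3 rose, with a median of 0.23, where 11.5% of all tested genes rose. Against 0 µM the counts were 3 of 13 and 3 of 21, with medians of 0.20 and 0.12, where 6.81% of all tested genes rose. At 2 µM none of the 13 and 3 of the 21 fell, where 2.65% of all tested genes fell. Of the 6 genes printed with an E-box, Ctsa, Gla and Mcoln1 rose between 2 and 10 µM, and Lamp1, Ctsd and Atp6v1a did not pass. Tested members without a promoter window are left out of these counts. Among them are Rb1cc1, Atp6v1h and Atp6v1g1, which rose at 10 µM against 0 µM, and Atp6v0a2, which fell. No test was made of these counts.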

How the data were processed

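RNA depleted of nuclear rRNA was sequenced as stranded 75 bp paired-end libraries. Per the labels and the study's methods, the authors trimmed reads (Trim Galore, Cutadapt), aligned them to mm10 with STAR 2.5.2a and used featureCounts to count the fragments that mapped uniquely within each gene. The deposited values are these raw counts. The gene annotation and the strand setting are not given in the sources used here.

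Counts were analysed with edgeR 4.0.16 in R 4.3.3 (filterByExpr, TMM, glmQLFit, glmQLFTest; Benjamini-Hochberg over 14296 genes), with all 8 libraries and dose as the only factor. The DEG thresholds (adjusted p of 0.01, 1.5-fold) follow the study's methods. The SE is the log2 fold change divided by the square root of F. The code was checked on simulated counts, with a spread that was set and not taken from these data. At a true 1.3-fold change, 26 of 100 changed genes were recovered for 2 µM and 19 of 100 for 10 µM against 0 µM. At 2-fold, 100 and 99 were recovered. The changed genes were drawn only from genes above a set mean level, so the recovery does not cover low-count members. A gene that did not pass may therefore still differ by a small amount, and a low-count gene by a larger one. Atp6v1g2, with a mean of 1.04 CPM at 0 µM, had 0.86 ± 0.33 at 10 µM against 0 µM and did not pass (edgeR adjusted p = 0.107). Lengths, positions and shared 75-base stretches came from GENCODE vM21 (GRCm38), and promoters from RefSeq (GRCm38.p6), with Python 3.11.15 and pandas 2.3.3. Library values were given for DEGs, Tfeb, Tfe3 and, per role, the gene with the smallest p at each dose. Map1lc3b was added after its values were seen. Of further pathway genes, the DEGs and the smallest p per list and dose were named. Rubcn was not analysed here. Members and lists were chosen with earlier results of these data known. Alternatives were RLE, library totals, TMM over nuclear genes, no filter, DESeq2 1.42.0, a minimum of 10 counts per library, only the compared groups, a replicate block and each library left out. One gene of the wider pathway lists is not reported here by name.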

Additional observations from a re-analysis of the deposited data

How the results depend on the processing

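The number of members called at 2 µM was 0 with a replicate block and 0 to 7 when a library was left out. At 10 µM against 0 µM it was 30 with library totals, 4 with no filter on low counts, 5 with DESeq2, 2 with only the compared groups, 4 with the replicate block and 0 to 10 when a library was left out. At 10 µM against 2 µM it was 27 with library totals and 3 to 12 when a library was left out. For DEGs, library totals gave 3 at 10 µM against 0 µM and 4 against 2 µM. Against 2 µM, RLE, TMM over nuclear genes and the replicate block gave 1, no filter and DESeq2 gave 0, and leaving out a library gave 0 to 2. The shares of all tested genes called in these fits are not given here, so the counts have no background beside them. The cause of these shifts was not tested. Fits with fewer libraries also have fewer degrees of freedom. Leaving out a 10 µM library left 1, which was assumed to vary like the other groups.

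The replicate numbers are shared by the labels, but nothing says that they mark a common batch. Same-numbered libraries at 0 and 2 µM had correlations of their deviations of 0.199, 0.0845 and 0.161. Those at 0 and 10 µM had -0.145 and -0.105, and those at 2 and 10 µM -0.0212 and -0.061. No correlations of unlike-numbered libraries are given beside them, so these values cannot show whether the numbers mark a pairing. The main fit did not use the numbers as a pairing. The block changed the member counts only as given above, with 10 calls at 10 µM against 2 µM.

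With library totals the sign turned at 2 µM for Mcoln1 (0.035), Slc38a9 (0.028) and Prkaa1 (0.038), and at 10 µM for Tfe3 (0.026 against 0 µM, 0.065 against 2 µM). Leaving out a library turned it at 2 µM for Mcoln1 (-0.12 to 0.011), Prkaa1 (-0.074 to 0.00953) and Rb1cc1 (-0.0132 to 0.028), at 10 µM against 0 µM for Npc2 (-0.072 to 0.40), and at 10 µM against 2 µM for Wipi1 (-0.016 to 0.39) and Tmem199 (-0.010 to 0.11). None of these was called in the comparison concerned. Over all single-gene values, 1524 kept direction and side of the threshold, 203 lost the call, 38 gained it and 11 turned sign.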
